A study of Zea mays with 8 samples.

Results

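The genes of sugar entry followed here are 6 of the 39423 genes in the deposited table, chosen by v3 gene ID and measured in maize (Zea mays) endosperm. They are Mn1 (GRMZM2G119689, listed in RefSeq as mn1 and INCW2), SWEET4c (GRMZM2G144581), SH-1 (GRMZM2G089713), sus1 (GRMZM2G152908), bt1 (GRMZM2G144081) and sfp5 (GRMZM2G444801). They were chosen by their known or assigned role in the path of sugar, though earlier results of these data were known. Each gene's level is the sum of its transcript rows. Endosperm RNA was sequenced 12 days after pollination in the W22 background from 4 pools of ded1-ref kernels and 4 pools of normal sibling kernels. Each ded1-ref pool is paired with a normal pool by its number, the number of kernels in a pool is not stated, and ded1-ref is the 1 mutant allele studied. The mutation affects ded1 (GRMZM2G121570), known to encode an R2R3 MYB transcription factor of the endosperm.

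Sugar reaches the maize kernel as sucrose, which leaves the mother plant's tissue at the kernel base and enters the endosperm through the basal transfer layer, a sheet of cells with folded walls. Mn1, the miniature1 cell wall invertase, splits sucrose there into glucose and fructose, and SWEET4c, a SWEET family transporter, carries hexoses across the membrane. Inside the endosperm sucrose is formed again and split by sucrose synthases into fructose and UDP-glucose, with SH-1 (shrunken1) known as the main endosperm enzyme and sus1 as a second, more widely expressed one. ADP-glucose made from these sugars enters the starch-forming plastid through bt1 (brittle1). sfp5 is annotated among sugar carriers, and no source used here names what it carries in maize endosperm.

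The reads behind the values ran from 10536845 to 20725033 per library. Levels are in TPM, each transcript's share of a library after scaling by its length. On this scale the median of 13671 tested genes changed by -0.68 log2 units in ded1-ref, so the same test was run a second time after each library was divided by its median-of-ratios factor, giving scaled TPM, where the median change is -0.0031. The words rose and fell are used where a gene passed an adjusted p of 0.05 in limma in that direction on both of these scales. Zein storage protein genes matched by name summed to 294771 to 322180 TPM in normal endosperm and to 381010 to 431018 TPM in ded1-ref. ded1 itself stood at 37.0 to 42.0 TPM in normal endosperm and 67.3 to 101 TPM in ded1-ref. The mutant libraries are thus not marked by a loss of this transcript, which was higher in them. In these whole-tissue samples, fewer cells of a type and less RNA per cell cannot be told apart.

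Of the 6 genes, the carrier sfp5 and the sucrose synthase sus1 fell in ded1-ref, SH-1 and bt1 were lower on the TPM scale alone, and the entry genes Mn1 and SWEET4c were listed at or close to 0. Only 4 of the 6 passed the filter of 1 TPM in at least 4 libraries. On the TPM scale those 4 were lower, beside 69.8% of all tested genes, and on both scales 2 fell, beside 10.6% of all tested genes. The TPM of the groups did not overlap for the same 4 genes, as for 52.6% of tested genes, and the scaled TPM did not overlap for 2 of them, as for 12% of tested genes. sus1 stood above 1 TPM in normal libraries alone, so it entered the test through the group where it is high. In both groups the order of TPM was bt1, SH-1, sfp5 and sus1. Mn1 and then SWEET4c followed in normal endosperm, and SWEET4c and then Mn1 in ded1-ref. The ranges of neighbours were apart except for SWEET4c and Mn1 in ded1-ref. Among the tested genes sfp5 had the change of rank 12 from the lowest on the TPM scale and 14 on scaled TPM.

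**Figure D1:**
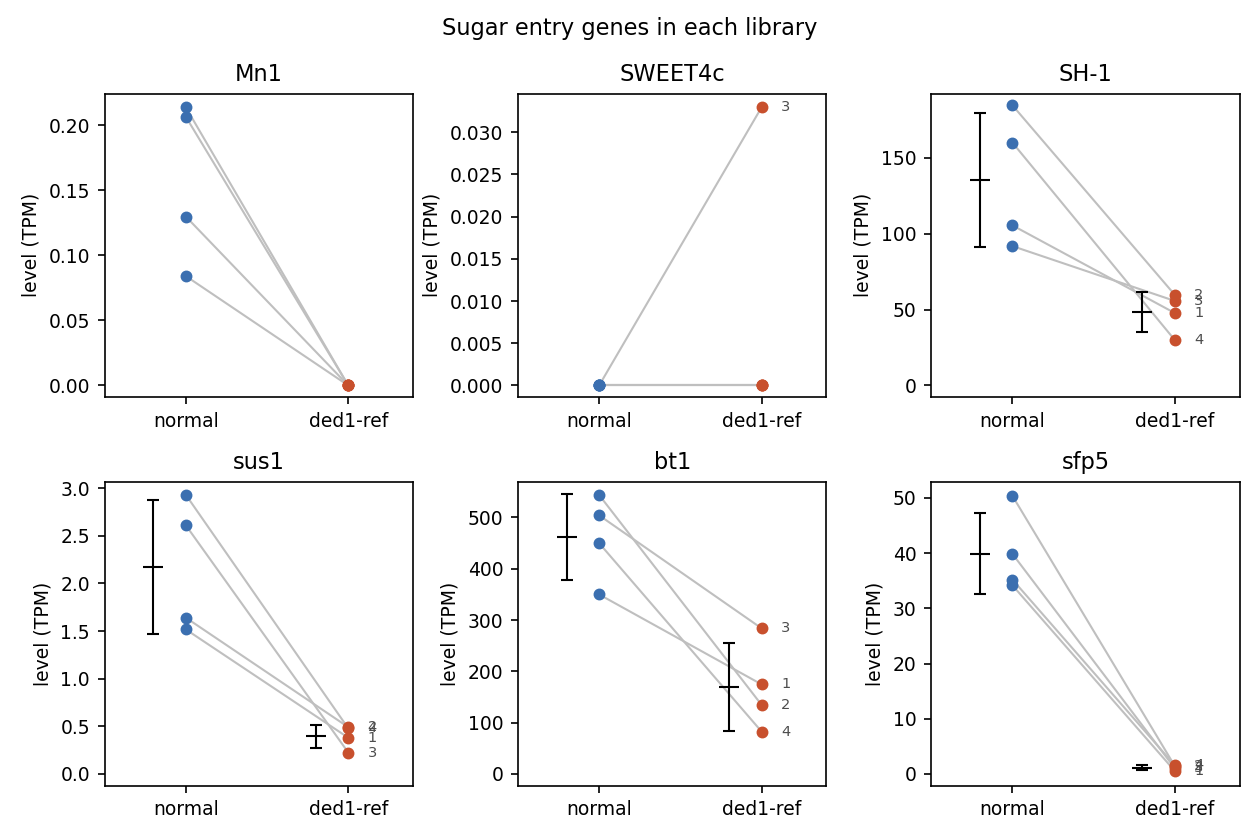
Level of each sugar entry gene in TPM (vertical axis, a separate linear scale per gene) in the 4 normal (blue) and 4 ded1-ref (red) libraries, with grey lines joining the pools of a pair, pair numbers at the right, and black bars for the mean ± SD (left out for Mn1 and SWEET4c, which are at 0 in many libraries). sfp5 lies between 34.2 and 50.4 TPM in normal endosperm and between 0.544 and 1.56 TPM in ded1-ref.

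Mn1, the invertase of the transfer layer wall, was close to the limit of detection. The normal libraries held 3, 5, 8 and 4 reads of Mn1 in replicates 1 to 4, which are 0.0841, 0.214, 0.207 and 0.130 TPM. All 4 ded1-ref libraries held 0 reads. The 20 normal reads lay in 2 of its 3 transcript rows, with 19 in T02 and 1 in T01. Against a floor of 3 reads over the 68597699 reads of the ded1-ref group, Mn1 was 8.41-fold higher in normal endosperm per read sequenced. It was 5.30-fold higher per unit of the read size factors, which follow the typical gene. In the authors' deposited table T02 has a log2 fold of -1.90, with an adjusted p of 0.0205. The floor covers counting error in ded1-ref only. The 20 normal reads are taken as counted, so these folds are not lower bounds.

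SWEET4c, the hexose transporter, gave 1 read in all 8 libraries, in ded1-ref replicate 3, in T04 of its 7 rows. The 0 reads among the 54406522 of the normal group allow up to 3 reads of SWEET4c, against the 1 read among 68597699 in ded1-ref. No difference was detectable at this depth. Mn1 and SWEET4c are known to be expressed in this tissue, and so are GBSS1 (waxy), sh2 and bt2 of starch synthesis, which stood at 3.53, 7.81 and 2.98 TPM in normal endosperm with 6, 3 and 3 transcript rows. Across the table, 1.92% of the 26766 genes with 1 row had a mean of at least 100 TPM, against 0.427% of the 2811 genes with 4 or more rows. How reads shared by several rows were counted is not stated in any source used here, and its part in these low levels was not tested. Single genes departed from this trend. The transfer layer marker BETL1, with 1 row, held 0 reads, and SH-1, with 7 rows, averaged 136 TPM across the normal pools. Whether shared reads were counted alike in both groups was not tested either. Levels compared between genes, and changes of genes with several rows, both carry this limit.

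Of the other invertase genes, 1 could be tested, and it rose. The list of invertases held 4 further genes, of which incw1, another cell wall invertase gene, passed the filter on low values. It reached 1 TPM in normal replicate 1 and in ded1-ref replicates 1, 2 and 4. It thus entered the test mostly through the group where it is high. incw1 (GRMZM2G139300) rose from 0.851 ± 0.521 to 2.19 ± 1.06 TPM (SD, n = 4), beside 3.53% of tested genes that rose. It changed by 0.76 log2 units in TPM (limma adjusted p = 0.0202) and by 1.18 on scaled TPM (limma adjusted p = 0.0074). It was higher in 3 of 4 pairs in TPM, and it did not pass on the TPM scale without replicate 2 or replicate 4 (limma adjusted p = 0.127 and 0.0762), nor when genes of any level entered the fit (0.111). The vacuolar invertase genes IVR1 and ivr2 had means of 0.147 and 0.195 TPM in normal endosperm and 0.384 and 0.346 TPM in ded1-ref, and incw3 was listed at 0 in all libraries.

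Markers of the transfer layer, where Mn1 and SWEET4c act, moved with Mn1. Of 15 matched marker genes 12 were tested, and 10 fell (8 without the replicate block), beside 1444 of all tested genes, or 10.6% (1242 without the block). The median scaled log2 change of the 12 was -1.26, against -0.0031 for all tested genes. Among the 10, tcrr-1 and bap-3a reached 1 TPM in normal libraries alone and so entered the test through the group where they are high. The 15 markers summed to 528.5 to 1314 TPM in normal endosperm and to 163 to 318 TPM in ded1-ref. On scaled TPM the sums were 397 to 969 and 194 to 529, where the ranges overlap. Of the normal mean sum of 957 TPM, betl-9 held 529 and betl10 held 213. BETL1 was listed at 0 in all libraries and MRP1, the regulator of this layer, at means of 0.0317 and 0.0348 TPM. The part of these markers in the levels of Mn1 was not tested. Per 1000 TPM of the marker sum, Mn1 reached 0.0994, 0.188, 0.157 and 0.246 TPM in the normal pools of pairs 1 to 4, against 0 in ded1-ref. The groups do not overlap (exact two-sided permutation p = 0.0286, the smallest that 4 against 4 allows; 0.0714 after Benjamini-Hochberg adjustment over 5 ratios). With 0 reads of Mn1 in ded1-ref, this ratio is 0 there whatever the marker sum. The test thus shows only that each normal pool held Mn1 reads, and it does not compare Mn1 with the markers. Against the same floor of 3 reads Mn1 was 1.95-fold higher in normal endosperm per marker read, which is likewise not a lower bound.

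The carrier sfp5 had the largest change of the tested sugar entry genes. sfp5 measured 34.2, 50.4, 39.9 and 35.2 TPM in the normal pools of pairs 1 to 4, against 0.544, 1.44, 1.05 and 1.56 TPM in their ded1-ref sibling pools. Every ded1-ref library lay far below every normal library. The group means were 39.9 ± 7.40 and 1.15 ± 0.460 TPM (SD, n = 4), a ratio of 34.7 in TPM and 19.7 in scaled TPM. In log2 units sfp5 changed by -4.26 ± 0.19 (SE) in TPM (limma adjusted p = 1.8e-08) and -3.63 ± 0.18 on scaled TPM (limma adjusted p = 7.1e-06), lower in 4 of 4 pairs. The level rests on 4910 reads in the normal libraries and 195 in ded1-ref, all in its 1 transcript row. In the authors' deposited table the log2 fold of sfp5 is -4.14, with a standard error of 0.238.

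sfp5 was lower also against the summed TPM of the transfer layer markers, most of which is betl-9 and betl10. Per 1000 TPM of the marker sum it reached 40.4, 44.2, 30.3 and 66.6 TPM in the normal pools of pairs 1 to 4, against 3.34, 7.65, 3.29 and 9.35 in ded1-ref. The ratio is the same on both scales, and its groups did not overlap. Its log2 difference was -3.04 (exact two-sided permutation p = 0.0286; 0.0714 after adjustment over the 5 ratios). No ratio of sfp5 to a single marker was taken, and tcrr-1, the tested marker with the largest change, went from 16.2 to 0.202 TPM. Whether sfp5 is expressed in the transfer layer is not said by any source used here.

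Of 13 further matched sugar carrier genes 4 were tested, and 2 fell, beside 10.6% of tested genes. Of these sfp3 reached 1 TPM in normal libraries alone and so entered the test through the group where it is high. sfp3 (GRMZM2G042171) fell from 2.11 ± 0.593 to 0.423 ± 0.269 TPM and sfp7 (GRMZM2G068212) from 3.66 ± 0.986 to 0.851 ± 0.540 TPM (SD, n = 4), each lower in 4 of 4 pairs. Both calls were lost on scaled TPM without replicate 3 (limma adjusted p = 0.0590 and 0.0900) and without replicate 4 (0.0862 and 0.0885) and with genes of any level in the fit (0.0855 and 0.103), and that of sfp3 also without replicate 1 (0.0872). The other two passed upwards on scaled TPM alone, and sut4 did not without the replicate block (limma adjusted p = 0.111, against 0.0393 with it). sfp1 (GRMZM2G159632) stood at 6.65 ± 1.55 and 12.6 ± 8.58 TPM, and sut4 (GRMZM2G307561), a sucrose transporter, at 6.36 ± 1.71 and 5.53 ± 1.66 TPM. Their log2 changes were 0.64 and -0.18 on the TPM scale and 1.38 and 0.54 on scaled TPM. Of the carriers too low to test, sut1, which loads sucrose in the phloem, had 7 reads in all, and the monosaccharide transporter MST1 had means of 0.759 and 0.161 TPM.

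**Figure D2:**
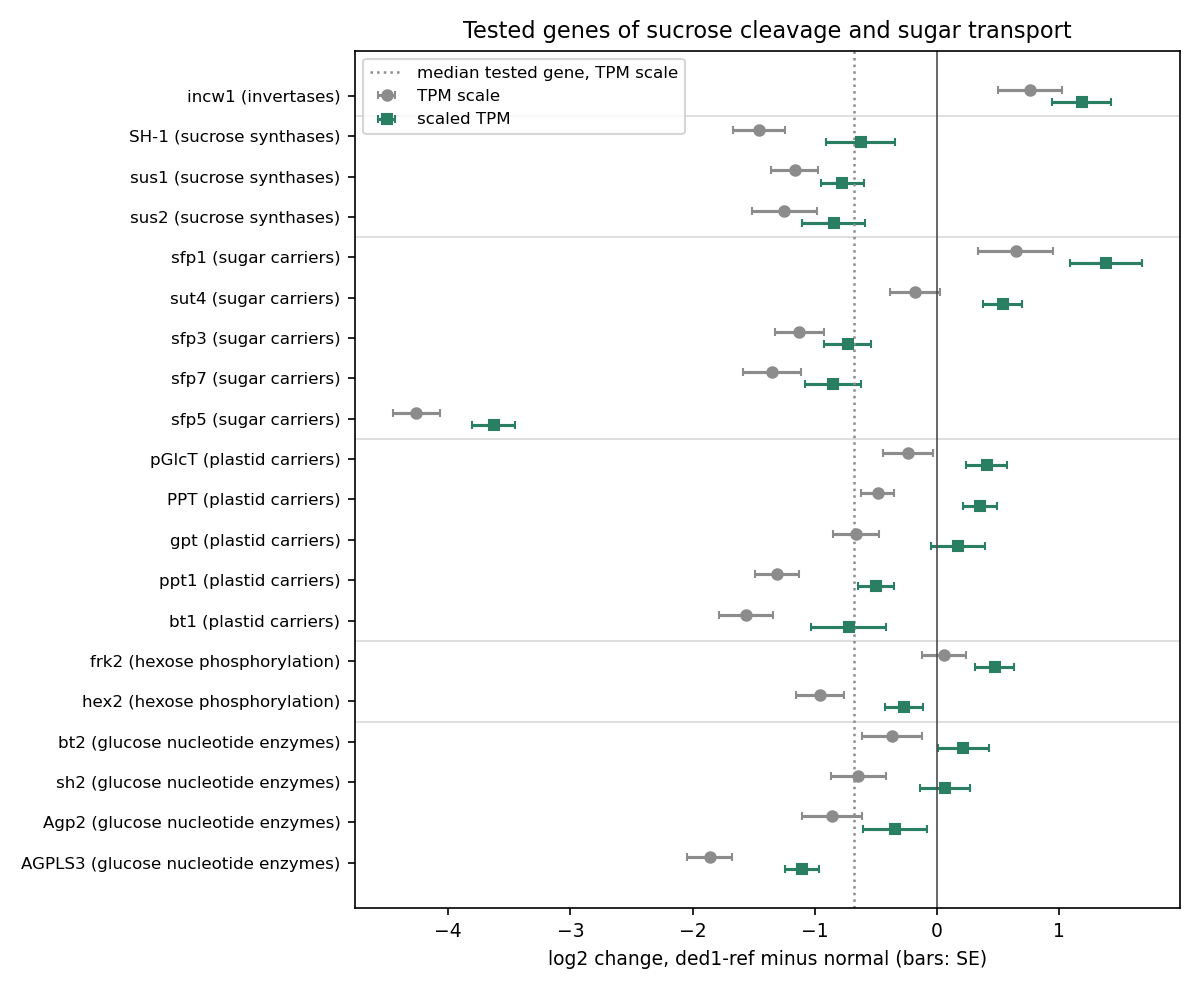
Log2 change, ded1-ref minus normal, with SE (horizontal axis) of the 20 tested genes of 6 lists on the TPM scale (grey circles) and on scaled TPM (green squares). The dotted line marks the median tested gene on the TPM scale at -0.68, and sfp5 lies apart from the others at -4.26 and -3.63.

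All 3 sucrose synthase genes had a lower mean level in ded1-ref, and sus1 and sus2 passed on both scales, beside 10.6% of tested genes. Like sus1, sus2 reached 1 TPM in normal libraries alone. Both entered the test through the group where they are high, and their calls add no support to each other. sus1 measured 1.52, 1.64, 2.61 and 2.93 TPM in the normal pools of pairs 1 to 4, against 0.381, 0.492, 0.225 and 0.479 TPM in their ded1-ref sibling pools. The groups did not overlap, and the means were 2.17 ± 0.702 and 0.394 ± 0.123 TPM (SD, n = 4), a ratio of 5.52 in TPM and 3.16 in scaled TPM. In log2 units sus1 changed by -1.17 ± 0.19 (SE) in TPM (limma adjusted p = 2.7e-04) and -0.77 ± 0.17 on scaled TPM (limma adjusted p = 0.0122). A pseudocount of 1 TPM is large beside these levels and makes the log2 change smaller than the ratio.

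The level of sus1 rests on 290 reads in the normal libraries and 74 in ded1-ref. On scaled TPM its call was lost without replicate 3 (limma adjusted p = 0.0511), and also when genes of any level entered the fit (0.0550). Its reads lay in 3 of 4 transcript rows, each lower in 4 of 4 pairs. T04 went from 0.983 ± 0.612 to 0.166 ± 0.0249 TPM, T02 from 0.851 ± 0.280 to 0.138 ± 0.0953 TPM and T01 from 0.340 ± 0.0940 to 0.0898 ± 0.0900 TPM. The authors' deposited table gives them log2 folds of -1.40, -1.61 and -0.83, with adjusted p-values of 0.0264, 0.00225 and 0.349. sus2 (GRMZM2G318780), the third sucrose synthase, fell from 2.73 ± 1.77 to 0.465 ± 0.190 TPM, with a scaled log2 change of -0.85 (limma adjusted p = 0.0445). Without replicate 1, 3 or 4 that adjusted p was 0.101, 0.126 and 0.0564. It was 0.0533 with a pseudocount of 0.1 TPM and 0.142 with genes of any level in the fit.

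SH-1, the shrunken1 enzyme, was lower in TPM but did not pass on scaled TPM. It measured 105.5, 185, 91.9 and 160.1 TPM in the normal pools of pairs 1 to 4, against 47.7, 59.7, 55.7 and 29.9 TPM in their ded1-ref sibling pools. The groups did not overlap on this scale. The means were 136 ± 44.1 and 48.3 ± 13.2 TPM (SD, n = 4), and SH-1 changed by -1.46 ± 0.22 log2 units in TPM (SE; limma adjusted p = 1.2e-04). In scaled TPM it stood at 85.5, 128, 67.8 and 120.3 in normal endosperm and at 70.1, 61.4, 92.8 and 38.3 in ded1-ref. Here the groups overlap, since ded1-ref replicates 1 and 3 both lay above the normal pool of pair 3. The scaled log2 change was -0.63 ± 0.28 (limma adjusted p = 0.148), and it was -0.98 without replicate 3 (0.0228) and -0.29 without replicate 4 (0.461). On recovered reads in limma-voom it was -0.34 (0.336).

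Of the 7 transcript rows of SH-1 4 held nearly all of the 16095 reads, and T05 and T07 held none. T03 had the highest level, with 61.7, 121, 38.7 and 92.0 TPM in the normal pools of pairs 1 to 4, against 18.6, 32.1, 23.0 and 11.2 TPM in ded1-ref. T02 measured 20.3, 23.2, 20.8 and 22.3 TPM in the normal pools, against 5.80, 10.3, 4.19 and 12.9 TPM. In both rows every ded1-ref library was below every normal library. In T04 and T06 the groups overlapped, with means of 19.0 ± 5.80 and 9.28 ± 4.43 TPM in T04 and of 16.5 ± 5.32 and 9.43 ± 6.42 TPM in T06.

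In the fit of all transcript rows, T02, T03, T04 and T06 passed as lower in TPM, by -1.39, -1.80, -1.06 and -0.93 log2 units, beside 68.4% of 14211 rows. On scaled TPM T02 alone passed (-0.62 ± 0.19 SE; limma adjusted p = 0.0424), beside 10.1% of rows, while T03 stood at -0.99 ± 0.33 (limma adjusted p = 0.0658), T04 at -0.28 and T06 at -0.15. The authors' deposited table calls T03 and not T02, with log2 folds of -0.96 and -0.57 and adjusted p-values of 0.0263 and 0.0948. The share of the gene's TPM held by T03 was 58.4%, 65.5%, 42.1% and 57.5% in normal replicates 1 to 4 and 39.0%, 53.8%, 41.3% and 37.3% in ded1-ref. It was lower in 4 of 4 pairs, with means of 55.9% ± 9.85 and 42.8% ± 7.50 (n = 4; exact two-sided permutation p = 0.0571). With several rows per gene, how the authors' counting shared reads among them is not known, so these rows are uncertain as isoforms.

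**Figure D3:**
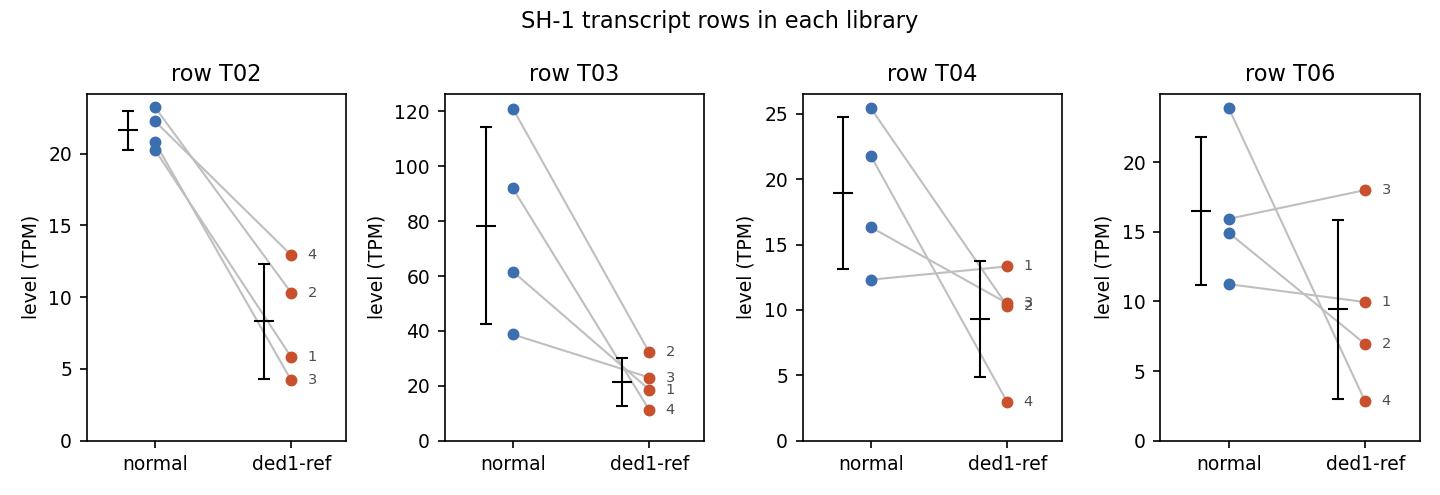
Level in TPM (vertical axis, a separate linear scale per row) of the 4 SH-1 transcript rows with most reads in normal (blue) and ded1-ref (red) libraries, with grey lines for pairs, pair numbers at the right and black bars for the mean ± SD. The groups are apart in T02 and T03 and overlap in T04 and T06.

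bt1, the ADP-glucose carrier of the plastid envelope, had the highest TPM of the 6 genes in both groups. bt1 measured 350.0, 544, 504 and 449.9 TPM in the normal pools of pairs 1 to 4, against 175, 135, 284 and 82.8 TPM in their ded1-ref sibling pools. The groups did not overlap, with means of 462 ± 84.0 and 169 ± 85.4 TPM (SD, n = 4) and a log2 change of -1.56 ± 0.22 (SE; limma adjusted p = 9.0e-05). In scaled TPM it stood at 283, 377, 372 and 338 in normal endosperm and at 257, 139, 473 and 106 in ded1-ref. The ded1-ref libraries then lay on both sides of the normal ones, with replicate 3 above all of them. The scaled log2 change was -0.72 ± 0.31 (limma adjusted p = 0.123), and it was -1.08 without replicate 3 (0.0263) and -0.41 without replicate 4 (0.385), with -0.49 without replicate 2 (0.376). The gene rests on 58669 reads, all in T01 of its 2 rows, which has a log2 fold of -0.45 in the authors' deposited table, with an adjusted p of 0.470.

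bt1 and SH-1 had the same order of pairs. On scaled TPM the within-pair log2 differences were -0.14, -1.43, 0.35 and -1.67 for bt1 and -0.28, -1.05, 0.45 and -1.63 for SH-1 in pairs 1 to 4. Pairs 2 and 4 were far lower in ded1-ref, pair 1 was a little lower and pair 3 was higher. sus1 had differences of -0.52, -0.50, -1.09 and -0.99 and sfp5 of -3.99, -3.85, -3.47 and -3.19, which are below 0 in every pair. The transfer layer sum of ded1-ref replicate 3, at 318 TPM, also stood above the 163 to 189 TPM of the other ded1-ref libraries, and its part in these results was not tested.

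**Figure D4:**
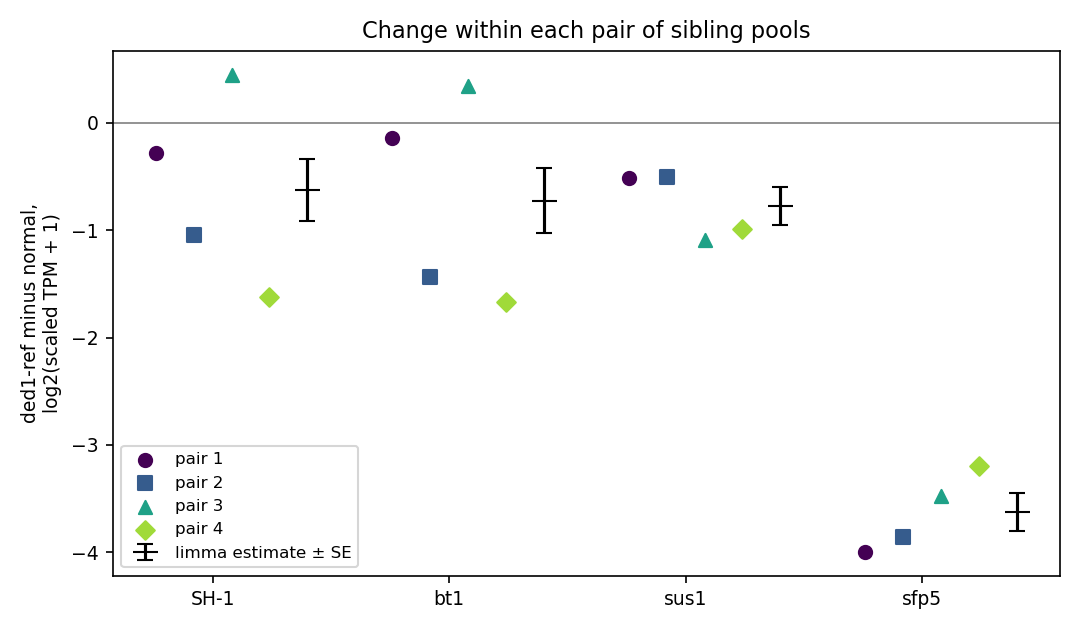
Difference ded1-ref minus normal in log2(scaled TPM + 1) (vertical axis) within each of the 4 pairs (symbols) for the 4 tested sugar entry genes, with the limma estimate ± SE in black. SH-1 and bt1 are above 0 in pair 3 and lowest in pair 4, while sus1 and sfp5 are below 0 in every pair.

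Ratios within a library set the sucrose synthases and bt1 beside starch synthesis. The starch list summed 16 matched genes to 2681 to 3476 TPM in normal endosperm and to 1571 to 1918 TPM in ded1-ref, and ae1, a starch branching enzyme gene, made up 82.8% to 89.4% of it. SH-1 stood at 43.4 ± 13.0 and 28.1 ± 6.18 TPM per 1000 TPM of this sum (SD, n = 4), lower in 3 of 4 pairs (log2 difference -0.61; exact two-sided permutation p = 0.114). bt1 stood at 148 ± 22.3 and 99.5 ± 50.4 per 1000, lower in 3 of 4 pairs (log2 difference -0.70; exact p = 0.143). sus1 stood at 17.5 ± 8.24 and 9.06 ± 5.00 TPM per 1000 TPM of SH-1, lower in 4 of 4 pairs (log2 difference -0.99; exact p = 0.114). These 3 ratios overlapped between the groups, and each had a p of 0.143 after adjustment over the 5 ratios.

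**Figure D5:**
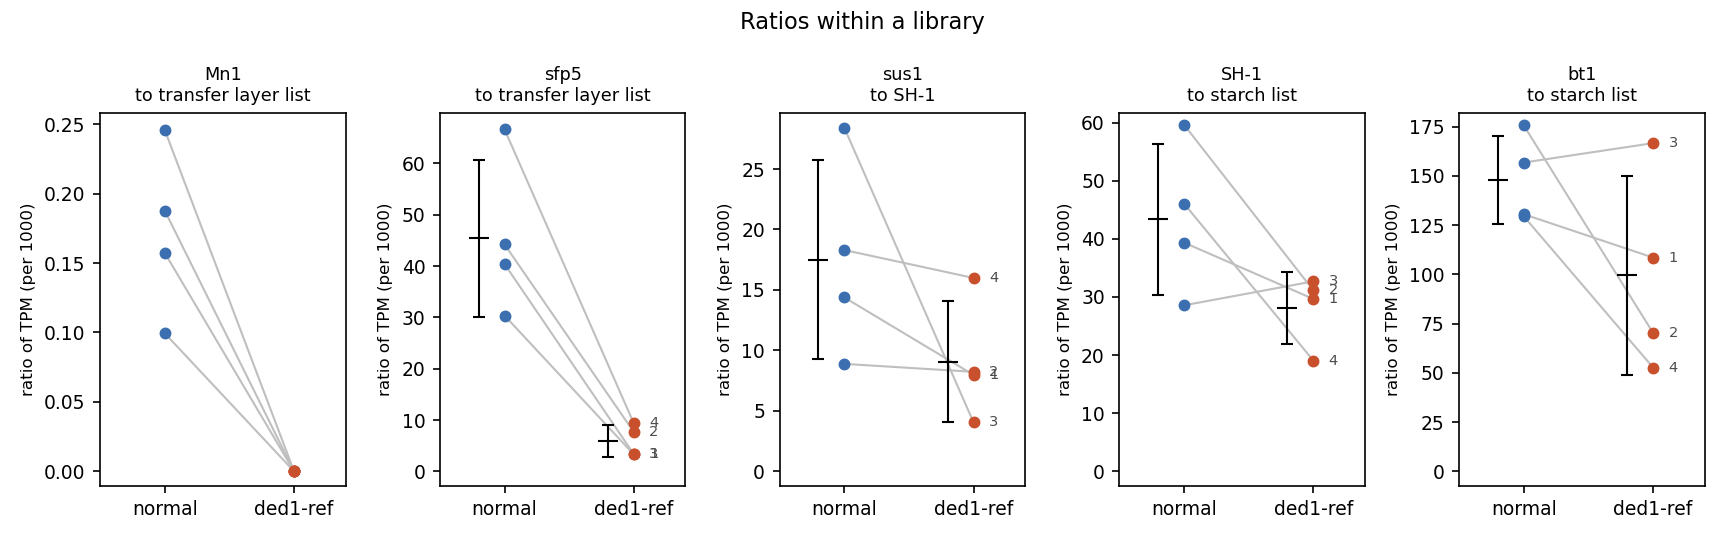
Ratio of TPM values within a library, per 1000 (vertical axes, a separate linear scale per ratio), in normal (blue) and ded1-ref (red) libraries, with grey lines for pairs, pair numbers at the right and black bars for the mean ± SD (left out for Mn1). The groups are apart for Mn1 and sfp5 against the transfer layer list and overlap in the other 3 ratios. The Mn1 ratio is 0 in ded1-ref whatever the marker sum, since Mn1 had 0 reads there.

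Of 4 further plastid carriers 1 fell, beside 10.6% of tested genes. This gene, ppt1 (GRMZM2G047404), a phosphoenolpyruvate carrier, went from 47.3 ± 7.46 to 19.0 ± 6.51 TPM (SD, n = 4), with a scaled log2 change of -0.50. This call was lost without the replicate block (limma adjusted p = 0.0890, against 0.0392 with it) and was lost without replicate 1, 2 or 3 (0.0950, 0.141 and 0.148) and with genes of any level in the fit (0.0786). PPT and gpt, a glucose phosphate carrier, were lower on the TPM scale alone, and on scaled TPM they changed by 0.35 and 0.17 log2 units. pGlcT, a glucose carrier of the plastid, passed on neither scale, at 3.58 and 2.89 TPM. Of 4 tested genes for ADP-glucose pyrophosphorylase 1 fell, beside 10.6% of tested genes. This was AGPLS3 (GRMZM2G144002), a large subunit, which went from 21.9 ± 1.88 to 5.38 ± 1.34 TPM and was lower in 4 of 4 pairs. AGPLS3 changed by -1.86 log2 units in TPM (limma adjusted p = 5.8e-06) and by -1.10 on scaled TPM (limma adjusted p = 5.9e-04). The endosperm subunits sh2 and bt2 stood at 7.81 ± 5.10 and 4.37 ± 1.98 TPM and at 2.98 ± 1.69 and 1.93 ± 0.495 TPM. On scaled TPM sh2 changed by 0.07 and bt2 by 0.21 log2 units.

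Of the 2 tested genes for hexose phosphorylation neither passed on both scales. hex2, a hexokinase gene, stood at 7.08 ± 0.894 and 3.20 ± 0.783 TPM (SD, n = 4) and frk2, a fructokinase gene, at 0.985 ± 0.334 and 1.05 ± 0.192 TPM. On scaled TPM hex2 changed by -0.27 and frk2 by 0.47 log2 units. The genes that form sucrose again, SPS, spp1 and SPP2, were all below the filter, with means of at most 0.453 TPM. SPS went from 0.453 ± 0.219 to 0.0815 ± 0.0614 TPM, which was not tested.

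Among 1222 other tested genes with an informative name, the 3 most like each member were found by Pearson's r of log2(scaled TPM + 1) over the 8 libraries, which fall into 2 groups. For sfp5 they were Ann7, an annexin gene (r = 0.995), eno1, an enolase gene (0.989), and gpi, glucose-6-phosphate isomerase (0.989). For sus1 they were In2-2 (0.977), AHAS109 (0.974) and rpot1 (0.969), and for bt1 EF1-A (0.969), ARGOS8 (0.948) and ms32 (0.943). For SH-1 they were ss1, a starch synthase gene (0.922), fsd1 (0.896) and mbd113 (0.893). These values are a description of the same libraries and carry no test. Embryo markers, checked for tissue carried over, summed to 298 to 527 TPM in normal endosperm and to 242 to 457 TPM in ded1-ref, with wus1 and wox5B at 0 in all libraries. On scaled TPM these sums were 224 to 389 and 403 to 672 and did not overlap. The gene ole1 made up most of them. By group means it held 385 of 411 TPM for the normal pools and 325 of 362 TPM for the ded1-ref pools. ole1 passed upwards on scaled TPM alone (limma adjusted p = 0.0306), and not without the replicate block (0.105). The scaled sums thus mostly follow this gene. Of 5 aleurone markers 3 rose (c1, bronze-2 and a2), and of 4 tested embryo markers 1 rose, beside 3.53% of tested genes. vpp1 and dek1, the other 2 aleurone markers, were lower on the TPM scale alone, by -1.33 and -0.82 log2 units. The aleurone markers bronze-2 and a2 reached 1 TPM in ded1-ref libraries alone, and the part of either list in the results was not tested.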

How the data were processed

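Reads were trimmed with cutadapt 1.1 and Trimmomatic 0.22 and aligned with GSNAP 2013-07-20, per the submitters' processing notes; no source used here gives the counter, the genome build or the treatment of reads shared by transcripts. The libraries do not mark strand, per the labels, so reads of overlapping or antisense genes cannot be told apart. The authors deposited TPM for 63293 transcript rows per library and a table of their own comparison. Per the file headers that table has, for each row, the mean normalized signal, the log2 fold (ded1-ref over normal) and its standard error, also in log2 units. Per the same file headers the authors also gave the test statistic as a score, its p-value, and that p-value after adjustment. It gives no fold for 24566 rows, and the score has the opposite sign of the fold in 38727 of 38727 rows, so directions follow the fold's header.

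The mean signal and the TPM together gave the reads behind 236228 values above 0, whole to within 0.05 reads in 100% of them. A single read was worth 0.0363 TPM (median over rows) at the greatest depth and 0.0823 TPM at the lowest. The rows of a gene were added up, which gave 39423 genes. limma 3.58.1 in R 4.3.3 (lmFit, eBayes with trend) was fitted to log2(TPM + 1) and to log2(scaled TPM + 1) of the 13671 genes that reached 1 TPM in 4 or more libraries, with pairs as a block (the replicate number) and Benjamini-Hochberg adjustment over all tested genes at 0.05. Folds of low genes come out too small on this log2 scale. Pools are paired per the series' design text, so the block is kept. The deviations of paired libraries from their group means had correlations of 0.115, 0.333, 0.309 and 0.149. Unpaired libraries were not compared in this way, so these values do not show the pairing. The fit was tested on simulated data.

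Ratios within a library and the share of the leading row of SH-1 were compared by an exact two-sided permutation test over libraries. The ratio of Mn1 was taken on the linear scale because of its zeros, and the planned ratios with SWEET4c could not be formed. Gene lists were written as symbol patterns and matched to RefSeq names of Zm-B73-REFERENCE-NAM-5.0, which matched 18771 of 39423 genes by ID or synonym; SWEET4c has no such symbol there and was taken by its ID. The plan was to name from each list up to 4 genes that rose or fell, or else up to 2 of the highest level. Not all of these are named above. Left out are bap-3b, bap1-b and bap2 of the transfer layer, MGL3 of the embryo list and sbe1 (GRMZM2G088737) of the starch list. The genes of the zein and embryo-surrounding lists are left out too. Genes named beyond the plan were chosen after their values were seen. The members and lists were chosen with earlier results of these data known. The replicates are separate pools per the labels. In the main fits limma p-values set the group difference against the spread of within-pair differences, with variances drawn towards a trend over genes. The exact permutation tests leave the pairing out. No sequence or position is given, since no sequence table or genome was used here.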

Additional observations from a re-analysis of the deposited data

Results flagged for a closer look

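Among 44 groups of 4 libraries examined, 1 held a library that stood apart by Dixon's criterion, where chance alone gives about 1 in 20. The summed TPM of the transfer layer list was 318 in ded1-ref replicate 3 against 163 to 189 in the other 3 ded1-ref libraries.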

How the results depend on the processing

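Of 440 values recomputed under the alternatives, 379 kept their direction and their side of the threshold, or for a count stayed within 1.5 times. sfp5 fell on both scales under every alternative run on its fits, from -4.41 to -4.18 on the TPM scale and from -3.77 to -3.51 on scaled TPM with a replicate left out. On scaled TPM the same alternatives gave -0.86 to -0.67 for sus1, -0.98 to -0.29 for SH-1, -1.08 to -0.41 for bt1 and 917 (without replicate 2) to 1209 genes lower, against 1444 with all libraries. With no filter on low values sus1 kept its change of -0.77 but did not pass on scaled TPM, where 29351 genes were tested. In that fit Mn1 had an adjusted p of 0.0138 on the TPM scale and 0.0518 on scaled TPM (limma). Without the replicate block sus1 and sfp5 still fell, and the count of genes that fell went from 1444 to 1242. limma-voom on the recovered reads called 545 genes that rose and 1404 that fell. The ratios to the transfer layer list differed by -0.17 per 1000 for Mn1 and -3.04 log2 units for sfp5. Taken as within-pair differences these means are the same by arithmetic. An exact sign-flip test of the 4 pairs gave p = 0.125 for each, the lowest it can reach. With a replicate left out the Mn1 difference ran from -0.197 to -0.148 and that of sfp5 from -3.21 to -2.86, where 3 against 3 cannot go below 0.1. The share of the leading SH-1 row, an alternative added after seeing the data, ran from -17.1 to -10.7 percentage points. Signs turned for values that had not passed: sut4 on the TPM scale with zein genes left out (0.0015), and, with a replicate left out, gpt (-0.022 to 0.47), Agp2 (-0.52 to 0.016) and sh2 (-0.13 to 0.26) on scaled TPM and frk2 on the TPM scale (-0.042 to 0.15). The cause of these changes was not tested. Depth limits Mn1 and SWEET4c, with 20 reads and 1 read in all.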
